A study of Mus musculus with 7 samples.

Results

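Mast cells and basophils store amines and proteases in their granules, and the genes for making, packing and releasing them form a well known set. The set described here holds 10 genes. It has 4 genes of amine synthesis and storage (Tph1, Hdc, Ddc and Slc18a2), the protease genes Cpa3 and Gzmb, the receptor and signalling genes Ms4a2 and Rgs13, the leukotriene enzyme gene Alox5 and the transcription factor gene Mitf. They were taken by symbol from 23521 probesets with exactly 1 annotated symbol, covering 22180 genes. All 10 were on the array, 9 with 1 probeset each and Alox5 with 2, of which the brighter over all arrays was used. Tph1, Rgs13 and Cpa3 were picked because their values on these arrays spread widely or differed between the groups. Their differences are therefore given as descriptions, with no test, and the other 7 were chosen by function with earlier results of these data known.

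Gene expression was measured in G1E cells, mouse erythroid precursors held at an immature stage by loss of GATA1 function. Total RNA went onto 7 Affymetrix Mouse Gene 2.0 ST arrays, 3 from control cells with intact Lockd (Lockd WT) and 4 from cells with a Lockd deletion made with CRISPR/Cas9. Lockd gives rise to a long non-coding RNA and neighbours Cdkn1b, which encodes the cell cycle inhibitor p27. The design text calls the samples clones, the labels do not say which clone or culture each array came from, and a p-value here measures only the spread between these samples. The values are log2 expression values made with RMA, so a difference of 1 is a 2-fold change, and levels of different probesets are not comparable with each other.

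Serotonin is made from tryptophan by hydroxylation and then decarboxylation, and histamine from histidine by decarboxylation. Both amines are pumped into granules by a vesicular transporter and held there with proteases on a proteoglycan matrix. Binding of antigen to IgE on the high-affinity IgE receptor releases the granules and starts leukotriene synthesis. Mast cells and erythroid cells share early regulators, among them GATA2 and the receptor KIT, and GATA factors bind the letters GATA in many mast cell genes.

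Lockd read 7.80 to 8.04 on the control arrays and 4.17 to 5.15 on the deletion arrays. Between arrays the correlation was 0.993 to 0.996. Control replicate 2 lay far from the others on the first principal component (29.9% of the variance). Differences, spreads and closest profiles of the genes that were far lower on that array are given with and without it. Car2 and Gfi1b, expressed in erythroid precursors, read 13.17 to 13.31 and 12.33 to 12.58 over the 7 arrays. Of 18 mast cell and basophil markers 16 were measured, and 4 of them lay above the median gene level of 5.72, Cpa3 and Ms4a2 of the present set among them. Kit read 11.59 to 11.82 over the 7 arrays. The IgE receptor alpha chain gene Fcer1a read 3.01 to 3.23, the chymase gene Cma1 3.33 to 3.96 and the tryptase gene Tpsb2 3.97 to 4.46. RMA values carry no detection call, so whether these low values lie above background was not tested. Fcer1a, Cma1 and Tpsb2 were thus in the low range of the array while Kit, Cpa3 and Ms4a2 were not, and the genes are called mast cell genes here for their known function. Megakaryocyte, neutrophil and monocyte, T and NK, and B cell marker lists, with 7, 12, 10 and 4 genes measured, had 0 genes past the limma threshold. At an unadjusted limma p under 0.05, reached by 4.61% of all genes, they had 1, 1, 2 and 0. The mast cell and basophil list also had 1 of 16 (Il4, difference -0.19) and the erythroid list 1 of 9 (Tfrc, difference -0.17, groups without overlap), neither past the threshold after adjustment. The megakaryocyte, neutrophil and monocyte, T and NK, and B cell list means were 5.66 to 5.77, 4.78 to 4.83, 4.98 to 5.09 and 4.70 to 4.98 on control arrays. On deletion arrays they were 5.62 to 5.71, 4.73 to 4.85, 4.93 to 5.06 and 4.71 to 4.89.

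The promoter sequences of Cpa3, Ms4a2 and Rgs13 are shown because these 3 members stood below both other control arrays on control replicate 2 by the widest margins of the set. Ms4a2 and Rgs13 had the same order of arrays within each group, and Cpa3 did not: on deletion replicate 1 it lay at -0.75 from its own mean over the 7 arrays, where Ms4a2 lay at 0.92 and Rgs13 at 0.37. RefSeq promoter windows of the build GRCm38.p6, from 250 bases before to 50 bases after an annotated start, were matched by symbol for all 10 members, with 14 windows in all. The sequences below run 5′ to 3′ along the gene's strand, with the GATA hexamers AGATAA and TGATAA, found on either strand, in capitals. They lie at chr3:20242132-20242431 (minus strand) for Cpa3, chr19:11623670-11623969 (minus strand) for Ms4a2 and chr1:144177323-144177622 (minus strand) for Rgs13.
Cpa3: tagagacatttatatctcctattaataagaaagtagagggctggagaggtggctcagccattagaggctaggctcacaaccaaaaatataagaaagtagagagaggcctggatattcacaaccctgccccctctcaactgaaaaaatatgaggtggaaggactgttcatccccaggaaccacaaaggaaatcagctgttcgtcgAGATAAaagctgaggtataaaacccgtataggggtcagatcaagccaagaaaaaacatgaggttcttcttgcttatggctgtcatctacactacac
Ms4a2: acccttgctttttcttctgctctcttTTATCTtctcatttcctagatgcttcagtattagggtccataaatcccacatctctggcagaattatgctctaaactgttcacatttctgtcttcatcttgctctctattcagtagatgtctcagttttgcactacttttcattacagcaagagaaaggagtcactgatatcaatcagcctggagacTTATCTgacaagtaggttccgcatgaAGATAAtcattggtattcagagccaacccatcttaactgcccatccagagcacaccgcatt
Rgs13: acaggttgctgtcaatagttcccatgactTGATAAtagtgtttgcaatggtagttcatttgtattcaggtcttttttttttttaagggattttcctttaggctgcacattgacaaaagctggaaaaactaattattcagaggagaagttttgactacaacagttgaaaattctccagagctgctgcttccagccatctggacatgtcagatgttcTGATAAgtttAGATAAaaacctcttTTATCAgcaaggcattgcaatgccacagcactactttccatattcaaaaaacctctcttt
Counted from 1 at the 5′ end of the window, the Cpa3 hexamer lies at positions 205 to 210. Ms4a2 holds 3 hexamers, at 27 to 32, 214 to 219 and 240 to 245. Rgs13 holds 4, at 30 to 35, 216 to 221, 226 to 231 and 241 to 246. AGATAA or TGATAA was present in 6 of the 14 windows (42.9%), belonging to 5 members, which also include Slc18a2 and 2 of the 3 windows of Mitf. The share over all 32851 windows of the table was 18.6%. Between positions 201 and 250, a stretch chosen after the matches were seen, such a hexamer was present in 5 of the 14 windows, 1 each of Cpa3, Ms4a2 and Rgs13 and 2 of Mitf, beside 2.86% of all windows. Mitf has 3 windows and so more chances of a match than genes with 1. The Tph1 windows held none. Slc18a2 and Mitf, which also hold a hexamer, had their highest control reading on control replicate 2, at 6.15 and 5.50. A relation between hexamers and array readings was not tested. The E-box letters CATGTG and CACGTG, of the kind that MITF binds, were in 0 of the 14 windows, against 14.2% and 7.15% of all windows. The looser CANNTG was in 7 of 14, against 72.3%. CANNTG and CACGTG read the same on both strands, and CANNTG covers CATGTG and CACGTG. These are matches of letters, and the arrays carry no measurement of factor binding.

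Amine synthesis showed the largest difference of the set in a single gene, Tph1, while the other 3 amine genes differed little. Tph1 encodes tryptophan hydroxylase, the rate-limiting enzyme of serotonin synthesis outside the brain. It read 10.39, 9.35 and 9.83 on control replicates 1 to 3 and 8.37, 7.88, 7.78 and 7.25 on deletion replicates 1 to 4. Each deletion array lay below each control array, with a gap of 0.98 between the lowest control and the highest deletion array. Control arrays averaged 9.86 ± 0.52 (SD, n = 3) and deletion arrays 7.82 ± 0.46 (SD, n = 4). The difference was -2.03 (SE 0.29), or 75.6% lower. Without 1 array at a time it was -2.29 to -1.77. Tph1 was picked for this difference, so no test is given.

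Hdc, the histidine decarboxylase gene that makes histamine, read 5.48, 4.79 and 5.04 on control and 5.02, 5.18, 5.24 and 4.74 on deletion arrays. The groups overlapped, with control replicate 1 highest and deletion replicate 4 lowest. The difference was -0.06 (SE 0.18, limma adjusted p 0.999) and its sign changed without control replicate 1, at 0.13, or without deletion replicate 4, at 0.045. Ddc encodes the aromatic amino acid decarboxylase that completes serotonin synthesis. It read 5.81, 5.73 and 5.78 on control and 5.71, 5.75, 5.68 and 5.64 on deletion arrays, the tightest values of the set. Its difference was -0.08 (SE 0.06, limma adjusted p 0.999). Slc18a2, the vesicular monoamine transporter that loads granules, read 5.73, 6.15 and 6.10 on control and 5.87, 6.10, 5.52 and 5.72 on deletion arrays. Control replicate 1 sat inside the deletion range, and the difference was -0.19 (SE 0.15, limma adjusted p 0.999). Ddc and Slc18a2, which act after Tph1 in making and storing serotonin, thus had differences of -0.08 and -0.19 beside the -2.03 of Tph1. Their means over the 7 arrays, 5.73 and 5.89, lay close to the median gene level of 5.72, and that of Hdc, 5.07, lay below it. Tph1 averaged 8.69. Whether Hdc, Ddc and Slc18a2 lay above background was not tested, so a drop in them might not be seen.

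**Figure D1:**
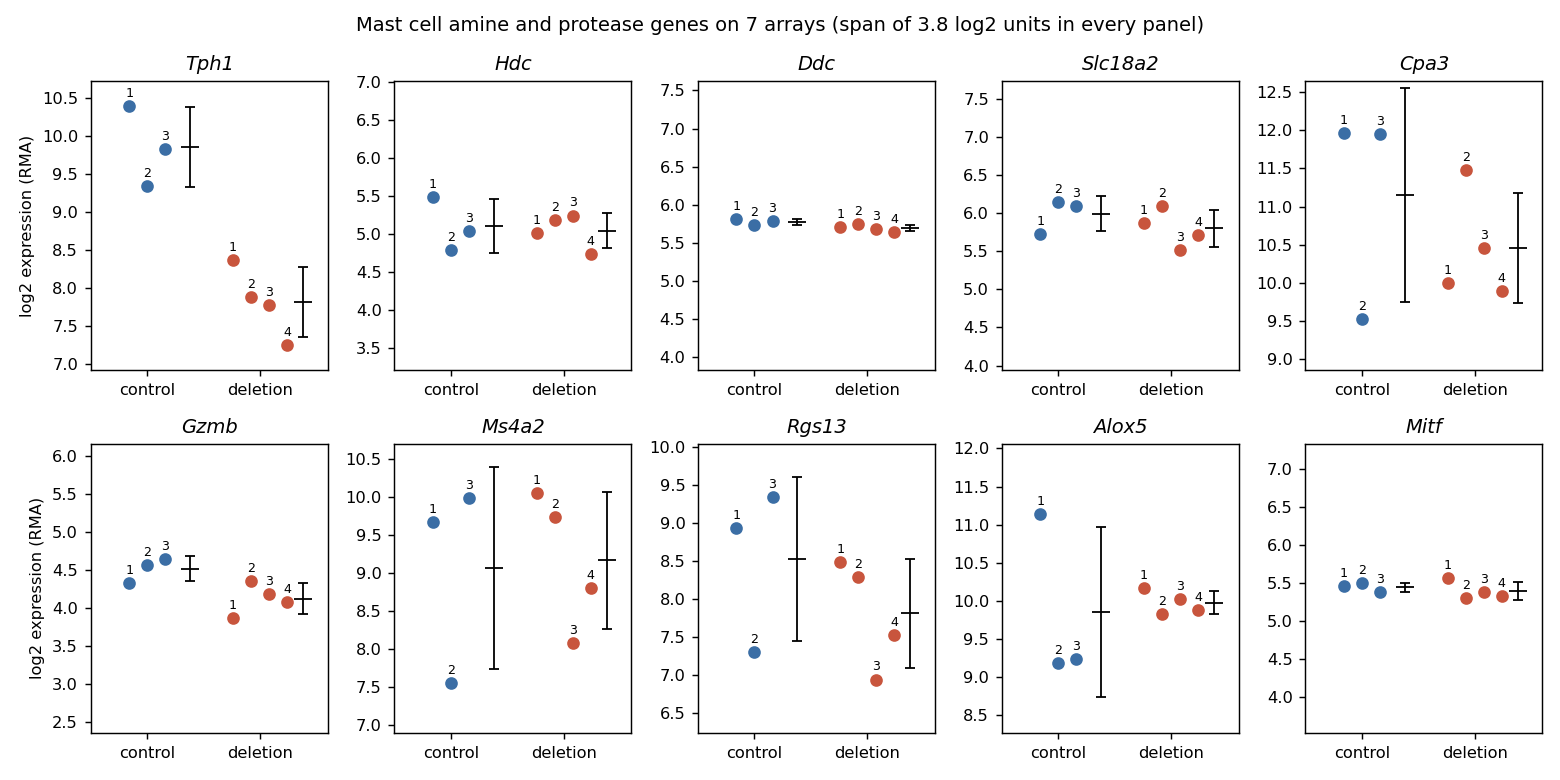
Log2 expression (y axis) of the 10 genes on 3 control (blue) and 4 deletion (red) arrays, with replicate numbers over the points and the group mean ± SD in black; the panels have different offsets but the same span. Tph1 is the gene whose groups do not overlap, and control replicate 2 lies far below the other control arrays for Cpa3, Ms4a2 and Rgs13.

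Among the protease genes, Cpa3 varied more between arrays of a group than between the groups. Cpa3 encodes mast cell carboxypeptidase A, a major granule protease. It read 11.97, 9.53 and 11.95 on control and 9.998, 11.48, 10.46 and 9.88 on deletion arrays. Control replicate 2 was 2.42 below the next control array, which is the widest such gap of all 22180 genes. Since Cpa3 was picked for its spread or difference on these arrays, that place is only a description. Deletion replicate 2 was 1.02 above the next deletion array. The difference was -0.70 (SE 0.62) with all arrays and -1.51 (SE 0.40) without control replicate 2, when both remaining control arrays lay above all 4 deletion arrays. It was -0.28 without control replicate 1 and -0.30 without control replicate 3. Without deletion replicate 2 it was -1.04.

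Gzmb, the granzyme B serine protease gene, was dim, with a mean of 4.29 over the 7 arrays. It read 4.33, 4.57 and 4.64 on control and 3.87, 4.35, 4.19 and 4.07 on deletion arrays. The lowest control array and the highest deletion array differed by 0.02 in the direction of overlap. The difference was -0.39 (SE 0.12). Its limma p was 0.0124 before adjustment and 0.999 after it. Of the 7 members that were tested, 0 passed in limma at an adjusted p under 0.05, where 0.0085% of all probesets did. Gzmb alone had an unadjusted limma p under 0.05, on the lower side, where 2.37% of all genes did, and 0 of the tested members had one on the higher side, beside 2.24% of all genes. Over the 17 alternative settings, the lowest adjusted p of a tested member was 0.685, for Gzmb.

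Ms4a2 and Rgs13 shared their order of arrays within each group, with control replicate 3 above 1 above 2 and deletion replicates 1, 2, 4 and 3 from high to low. Ms4a2 encodes the beta chain of the high-affinity IgE receptor. It read 9.67, 7.55 and 9.99 on control and 10.05, 9.74, 8.07 and 8.81 on deletion arrays. Control replicate 2 was the lowest of all 7 arrays and deletion replicate 1 the highest, so the groups overlapped over nearly their full range. The difference was 0.10 (SE 0.64, limma adjusted p 0.999) and turned to -0.66 (SE 0.50, limma adjusted p 0.953) without control replicate 2. It was also below 0 without deletion replicate 1, at -0.20, or deletion replicate 2, at -0.09, and rose to 0.40 and 0.56 without control replicates 1 and 3 and to 0.46 without deletion replicate 3. No direction between the groups can be given for Ms4a2.

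Rgs13 encodes a regulator of G protein signalling that speeds the return of G proteins to their inactive state and is known to restrain mast cell responses. It read 8.93, 7.31 and 9.34 on control and 8.49, 8.29, 6.94 and 7.53 on deletion arrays. Control replicate 2 was 1.62 below the next control array and below all deletion arrays but replicate 3. The difference was -0.71 (SE 0.52) with all arrays and -1.32 (SE 0.40) without control replicate 2, when the groups no longer overlapped. It was -0.31 without control replicate 3 and -0.42 without deletion replicate 3.

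**Figure D2:**
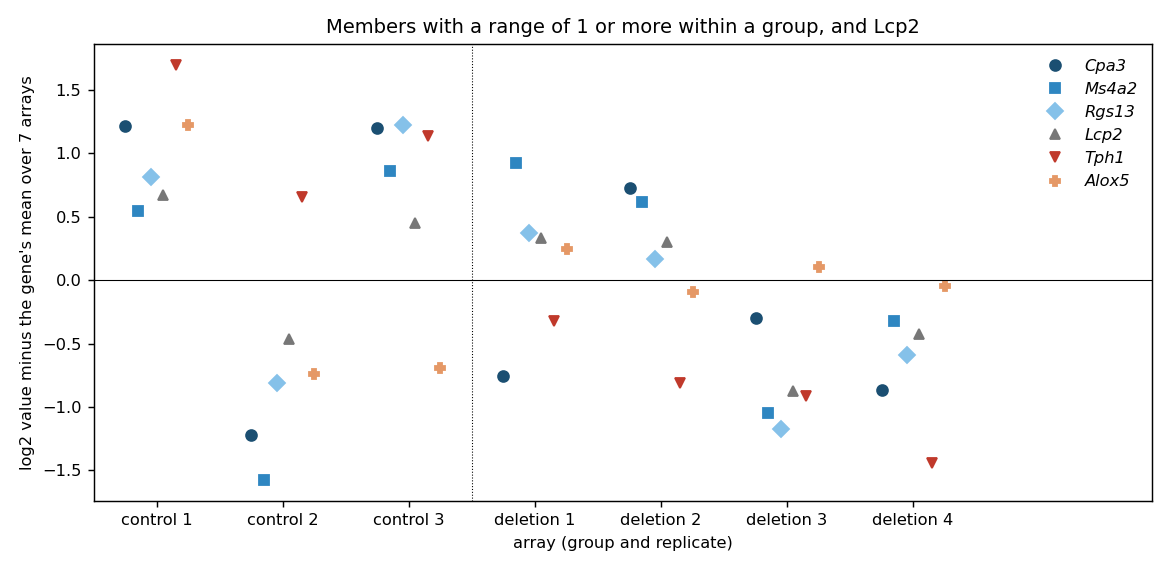
Log2 value minus the gene's mean over 7 arrays (y axis) on each array (x axis; control left and deletion right of the dotted line) for the 5 members with a range of 1 or more within a group, and for Lcp2, the gene closest to Rgs13. On control replicate 2, Cpa3 lies at -1.23. Tph1 lies above 0 on every control array, and its lowest control value, 0.65, is also on replicate 2. Alox5 is high on control replicate 1.

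Control replicate 2 was lower than both other control arrays by 1 or more for 18 genes of 22180, or 0.0812%, and 3 of the 18 were members, Cpa3, Ms4a2 and Rgs13. The margin was noticed in these data, and Cpa3 and Rgs13 were picked for their spread or difference on these arrays. This count and the next one, which also takes in the picked gene Tph1, are therefore only descriptions. The same array was the lowest control array for 7 of the 10 members and for 38.1% of all genes. Of the 13 measured mast cell and basophil markers that are no members, 2 lay above the median gene level. On control replicates 1 to 3 these read 11.82, 11.70 and 11.69 for Kit and 7.65, 7.66 and 7.57 for the interleukin gene Il4, with no low reading on replicate 2. The other 11 lay in the low range of the array, where a drop might not be seen. The mean over the 13 was 5.06, 5.08 and 4.94 on control replicates 1 to 3 and 4.88 to 4.99 on the deletion arrays. The erythroid markers, 9 of 12 measured, averaged 10.82 on control replicate 2 and 10.59 and 10.73 on the other control arrays, and 10.51 to 10.85 on the deletion arrays. The part of RNA quality or of cell state in the low reading was not tested, and in bulk RNA fewer cells expressing a gene and less RNA per cell cannot be told apart.

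Alox5, the arachidonate 5-lipoxygenase gene that starts leukotriene synthesis, followed another array. It read 11.14, 9.18 and 9.23 on control and 10.16, 9.83, 10.03 and 9.88 on deletion arrays. Control replicate 1 was 1.92 above the next control array, and the 4 deletion arrays fell between it and the other control arrays. The second Alox5 probeset read 9.69, 8.25 and 8.20 on control and 8.91, 8.58, 8.87 and 8.57 on deletion arrays, again with control replicate 1 highest. The difference was 0.12 (SE 0.43, limma adjusted p 0.999) for the brighter probeset and 0.02 (SE 0.33) for the other. Without control replicate 1 it was 0.77, and without control replicate 2 or 3 it was -0.21 or -0.19. Alox5 thus had no direction that held when 1 control array was left out.

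Mitf, the transcription factor gene required for mast cell and melanocyte development, had a pooled SD within the groups of 0.10, below the 0.126 of the median gene. It read 5.46, 5.50 and 5.38 on control and 5.56, 5.30, 5.39 and 5.33 on deletion arrays. The groups overlapped, and the difference was -0.05 (SE 0.08, limma adjusted p 0.999). The melanocyte markers, all 6 measured, averaged 5.19 to 5.29 on control and 5.18 to 5.33 on deletion arrays. No member other than Tph1 had groups without overlap, where 2.54% of all genes had every deletion array below every control array and 2.65% every one above. Of the 7 members not picked for their spread or difference, 5 had a difference below 0 and 2 above, beside 47.8% of all genes below 0. Their median difference was -0.06, against 0.01 for all genes. Without control replicate 2, the deletion arrays lay below both control arrays for Tph1, Ddc, Cpa3 and Rgs13 and for 6.76% of all genes. That array was the lowest control array for these 4 members, so leaving it out lowers their differences by construction, and nothing is read from this count.

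**Figure D3:**
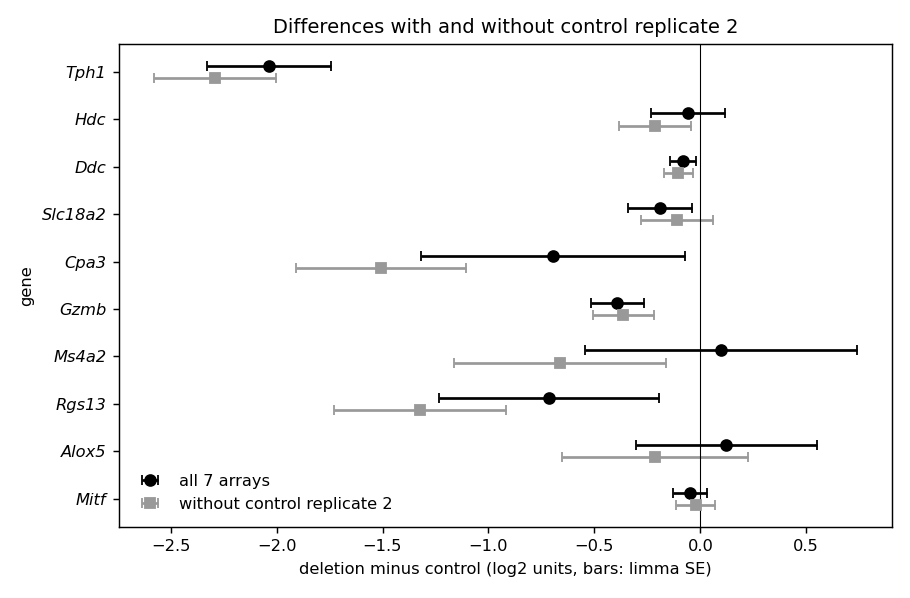
Deletion minus control (x axis, log2 units) for each gene, with bars for the standard error of limma, from all 7 arrays (black circles) and without control replicate 2 (grey squares). Cpa3 moves from -0.70 to -1.51, Rgs13 from -0.71 to -1.32 and Ms4a2 from 0.10 to -0.66, while Tph1 is at -2.03 and -2.29.

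Of the 10 members, 8 had a pooled SD within the groups above that of the median gene, and Mitf and Ddc lay below it. A range of 1 or more, which is 2-fold, was reached in either group by 5 members, Tph1, Cpa3, Ms4a2, Rgs13 and Alox5, and by 1.65% of all genes. Over control arrays alone it was these 5 and 1.09% of all genes, and over deletion arrays alone it was 4 of them, without Alox5, and 0.875%. The pooled SD within the groups was 1.09 for Ms4a2, 1.05 for Cpa3, 0.87 for Rgs13, 0.72 for Alox5 and 0.49 for Tph1, where the median gene had 0.126. Ranked from the widest, these were places 15, 17, 33, 54 and 178 among 22180 genes. Since members were chosen in part for this spread, the counts of members with a wide range and the ranks are a description. The other 5 members had 0.28 (Hdc), 0.24 (Slc18a2), 0.19 (Gzmb), 0.10 (Mitf) and 0.04 (Ddc). Hdc, Slc18a2 and Gzmb stood at percentiles 94.9, 90.3 and 78.5 of all genes, Mitf at 33.1 and Ddc at 4.24. Without control replicate 2 the pooled SD was 0.79 for Ms4a2, 0.63 for Rgs13 and 0.63 for Cpa3, in places 36, 63 and 67. Without control replicate 1 that of Alox5 was 0.13.

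**Figure D4:**
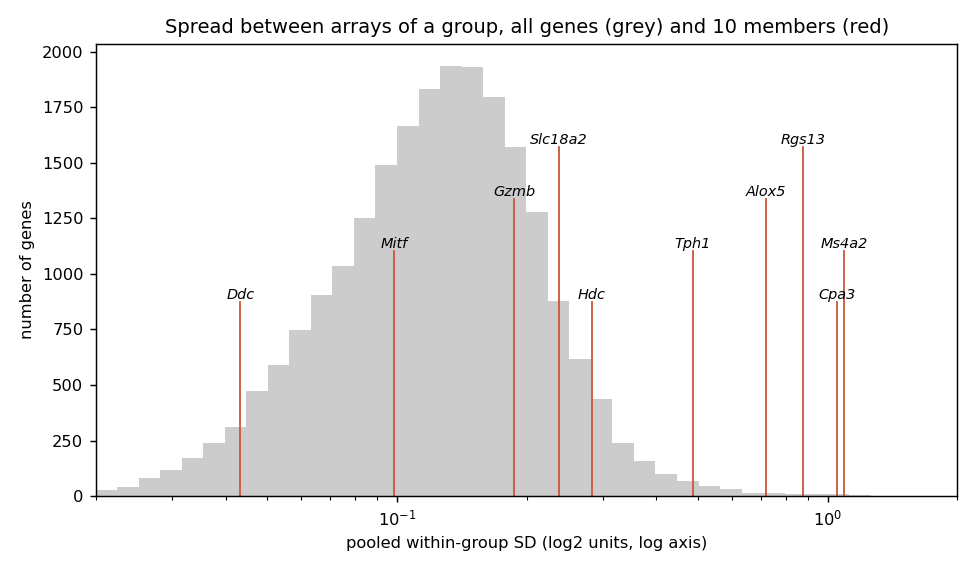
Histogram of the pooled within-group SD (x axis, log2 units on a log axis) over all genes (y axis, number of genes, grey), with red lines at the 10 members. The lines for Tph1, Alox5, Rgs13, Cpa3 and Ms4a2 lie in the right tail, above the 99th percentile of 0.445, and that for Ddc, at 0.04, lies left of the bulk.

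The genes with profiles closest to Tph1, Cpa3 and Rgs13 were found by the root mean square difference of values centred on each gene's mean over the 7 arrays. For Rgs13 the closest was Lcp2, at 0.35, followed by Tinagl1 at 0.44 and the ETS factor gene Erg at 0.44, with Ms4a2 in place 4 at 0.44. Lcp2 encodes SLP-76, an adaptor in IgE receptor signalling. It read 10.76, 9.63 and 10.54 on control and 10.42, 10.40, 9.22 and 9.67 on deletion arrays, so control replicate 2 and deletion replicate 3 were low, as they were for Rgs13. For Cpa3 the closest were Tinagl1 at 0.41, Erv3 at 0.47 and the G protein-coupled receptor gene Gpr65 at 0.48, with Rgs13 in place 13 at 0.63. For Tph1 the closest was Cdkn1b at 0.61, followed by the ubiquitin ligase gene Neurl3 at 0.66 and the AP-1 gene Jun at 0.67, and no other member was among the closest 20 over the 7 arrays. Cdkn1b differed by -1.14 (SE 0.10) between the groups and had control values of 9.06 to 9.30 and deletion values of 7.89 to 8.25. The measure takes size into account, and a flat profile would lie at 0.82 from Rgs13, 0.95 from Cpa3 and 1.09 from Tph1. Tph1 was picked for its difference, so genes much lower on the deletion arrays, as Cdkn1b was, lie near it in part by construction. Without control replicate 2, over 6 arrays, the closest to Rgs13 were Ms4a2 at 0.34, Lcp2 at 0.35 and Ndufa4l2 at 0.42. The closest to Cpa3 were then Neurl3 at 0.29, Gpr65 at 0.39 and Csf2rb2 at 0.40, with Rgs13 in place 53. The closest to Tph1 were then Erv3 at 0.54, Lockd at 0.58 and Cdkn1b at 0.66, with Rgs13 in place 4 and Cpa3 in place 8, so the neighbours of Cpa3 and Tph1 changed with that array. This setting was chosen after the data were seen. Profiles of 7 arrays in 2 groups share much by construction, so likeness is a description of these arrays.

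The wider pathways were followed in 6 lists of 146 genes placed around the members, of which 140 were measured. The limma test passed 0 of the 140 after adjustment, and 5 were under an unadjusted p of 0.05, 3 lower and 2 higher, or 3.57%, where 4.61% of all genes did. The groups did not overlap for 5 of the 140, also 3.57%, against 5.19% of all genes. The median difference was -0.02. Both shares were near those of all genes, slightly below them, and nothing is read from that. For comparison with the counts of each list below, 47.8% of all genes had a difference below 0. An unadjusted limma p under 0.05 was reached by 4.61% of all genes and a range of 1 or more within a group by 1.65%. The lists were chosen with earlier results of these data known, so their counts are descriptions.

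Genes of amine synthesis, transport and breakdown had a median difference of 0.01 over 26 measured of 27, with 11 lower and 15 higher. The diamine oxidase gene Aoc1, which breaks down histamine, differed by -0.20 (SE 0.08) and was the 1 gene with an unadjusted limma p under 0.05. The aldehyde dehydrogenase gene Aldh2 differed by 0.31 (SE 0.17) and the monoamine transporter gene Slc29a4 by -0.14 (SE 0.10). Tph2, the brain form of tryptophan hydroxylase, read 4.82 to 4.97 on control and 4.53 to 4.90 on deletion arrays, without the gap seen for Tph1. Tph2, and Aoc1 at 4.09 to 4.42 over the arrays, lay below the median gene level of 5.72. Whether they lay above background was not tested, so a drop in Tph2 might not be seen.

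Granule protease and proteoglycan genes had a median of -0.07 over 30 measured of 32, with 19 lower. The granzyme A gene Gzma differed by -0.30 (SE 0.09) and was the 1 gene with an unadjusted limma p under 0.05. The tryptase gene Tpsab1 differed by -0.21 (SE 0.09) and the cathepsin G gene Ctsg by -0.19 (SE 0.10). Over the 7 arrays Gzma read 3.40 to 3.99, Tpsab1 4.72 to 5.19 and Ctsg 4.34 to 4.80, all below the median gene level of 5.72. Only 10 of the 30 genes had a mean above that level, and signal over background was not tested. A range of 1 or more within a group was reached by 6 of the 30, namely Cma2, Ctsc, Gzmf, Mcpt1, Mcpt2 and Srgn. Of these, Gzmf (3.42 to 4.51), Mcpt2 (3.24 to 4.95) and Cma2 (4.69 to 5.78) were also in the low range of the array. Srgn, the core protein of the granule proteoglycan that holds Cpa3, read 8.37, 7.03 and 7.12 on control and 7.26, 8.15, 6.82 and 6.82 on deletion arrays. Its high arrays were control replicate 1 and deletion replicate 2. Cpa3 was highest on the same arrays, though it read almost as high on control replicate 3. Mcpt1, a mast cell protease gene, was highest on control replicate 3 at 6.66, against 5.13 and 4.46 on the other control arrays. Srgn and Mcpt1 were chosen after their values were seen.

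Genes of the IgE receptor and its signalling had a median of -0.05 over 26 measured of 27, with 18 lower and 0 at an unadjusted limma p under 0.05. Rab27a, a small GTPase of granule release, differed by 0.20 (SE 0.12), the receptor gamma chain gene Fcer1g by 0.12 (SE 0.07) and the kinase gene Btk by 0.11 (SE 0.07). Wide ranges were found for Lcp2, Pik3cd and Rab27b. RGS family genes other than Rgs13 had a median of -0.02 over all 20, with 12 lower. Rgs16 differed by -0.20 (SE 0.08, limma adjusted p 0.999) and was the 1 gene of the list under an unadjusted p of 0.05. Its relatives Rgs11 and Rgs18 differed by -0.28 (SE 0.15) and -0.41 (SE 0.23). Rgs18 was lowest on control replicate 2 among the control arrays, at 7.71 against 8.54 and 8.83, as Rgs13 was. Rgs1, Rgs18 and Rgs19 had a range of 1 or more within a group.

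Eicosanoid synthesis genes other than Alox5 had a median of -0.01 over 17 measured of 18, with 10 lower and 0 at an unadjusted limma p under 0.05. The leukotriene C synthase gene Ltc4s differed by -0.17 (SE 0.09), the kinase gene Mapkapk2 by 0.13 (SE 0.07) and the prostaglandin D synthase gene Hpgds by 0.10 (SE 0.06). Alox5ap, the activating partner of Alox5, read 6.57, 5.88 and 5.75 on control arrays, with replicate 1 highest as for Alox5, and 5.94, 6.20, 5.67 and 6.07 on deletion arrays. It was chosen for its role after its values were seen. Transcription factors and regulators around Mitf had a median of -0.04 over 21 measured of 22, with 13 lower. The adaptor gene Sh3bp2 differed by 0.24 (SE 0.09) and Lmo2, a partner of GATA factors, by 0.31 (SE 0.13), the 2 genes of the list at an unadjusted limma p under 0.05, and Stat5a by -0.42 (SE 0.19). Gata2 read 12.37 to 12.53 on control and 12.37 to 12.47 on deletion arrays, so it had no low reading on control replicate 2 of the size seen for Cpa3, Ms4a2 and Rgs13. Over the 6 lists a range of 1 or more within a group was reached by 12 of 140 genes, or 8.57%, beside 1.65% of all genes. The lists were chosen with earlier results of these data known, and some of these genes were in the low range of the array. This share is therefore only a description.

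**Figure D5:**
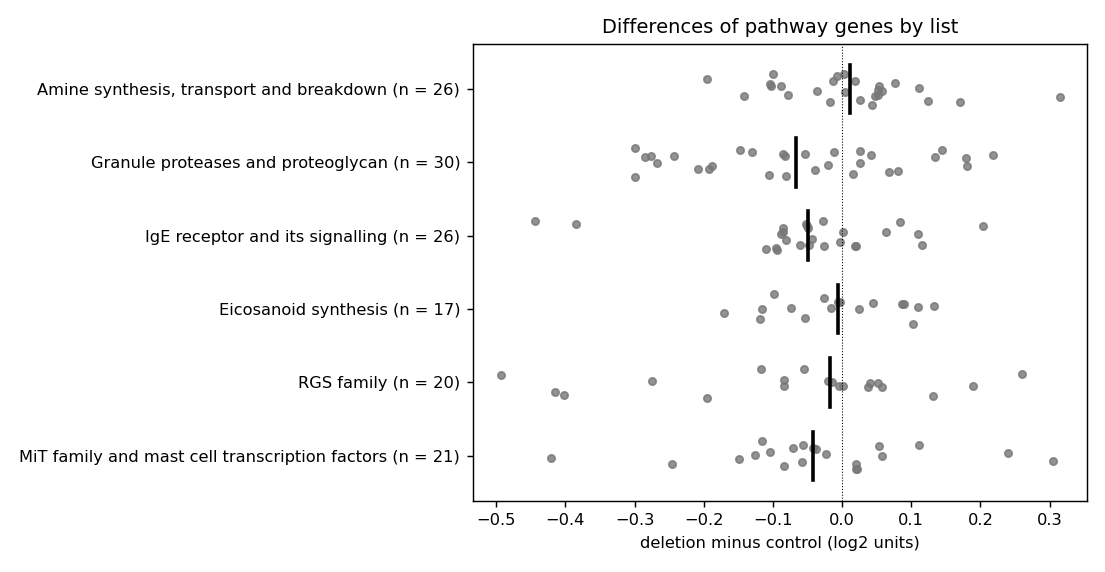
Deletion minus control (x axis, log2 units) of the measured genes of 6 lists (1 point a gene, jittered vertically), with the list median as a black bar and the number of genes in brackets; the members themselves are not included. The medians lie between -0.07 and 0.01, and all points lie between -0.49 (Rgs19) and 0.31 (Aldh2).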

How the data were processed

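Per the submitters' processing notes, the authors obtained the deposited log2 values with RMA, run in Affymetrix Expression Console. The scale was judged from the range, 1.87 to 14.01. RMA brings the arrays to a common distribution, so a shift shared by most genes would not be seen. The software version and the array's genome build were not given in the sources used here.

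Groups came from the sample titles. Of 41345 probesets, 23521 carried exactly 1 symbol and were tested, 1814 carried several and 16010 were not listed. Deletion minus control was tested with limma 3.58.1 in R 4.3.3 (lmFit and eBayes, two-sided, Benjamini-Hochberg over the 23521, adjusted p under 0.05, no filter or covariate), and the fit was tested on simulated data. Precision is limited by how few arrays there are. The sample titles and descriptions number the deletion arrays differently. Same-numbered arrays had correlations between their deviations from the group means of -0.10 to 0.06 by the titles and -0.17 to -0.10 by the descriptions. With so few arrays such values cannot exclude pairing. No label states that either numbering pairs the samples, so neither was taken to do so.

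Members and lists were chosen with earlier results of these data known. Named genes were the members, the 3 smallest p of each pathway list, the 3 closest profiles of Tph1, Cpa3 and Rgs13, and check genes. Others were named after their values were seen.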

Additional observations from a re-analysis of the deposited data

Results flagged for a closer look

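In groups of 4 arrays, 39 named genes were checked for a deletion array far from the others, and 2 stood out. Chance marks about 1 in 20 groups. Gpr65, a gene with a profile close to that of Cpa3, read 5.21 on deletion replicate 2 and 4.12 to 4.25 on the other deletion arrays, so the gap took 0.884 of the range. Lockd read 4.17 on deletion replicate 3 and 5.09 to 5.15 on the others, a gap of 0.939 of the range. None of the 10 members was marked in the deletion group, and the control group of 3 arrays was not checked in this way.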

How the results depend on the processing

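The count of tested members past the threshold was 0 in all 17 alternative settings, and so was the count of the 140 pathway genes. With array weights Ms4a2 turned to -0.25 and Alox5 to -0.26. With the replicate numbers of the titles as a replicate block Tph1 was -1.85 and Hdc turned to 0.045. By the titles deletion replicate 4 shares its number with no other array, so these differences equal those without that array. With the numbers of the descriptions as a replicate block Tph1 was -1.46, Hdc turned to 0.19, Rgs13 was 0.06, Cpa3 was -0.0006 and Ms4a2 was 1.13. By the descriptions control replicate 1 and deletion replicates 3 and 4 share their number with no other array. Those values therefore rest only on control replicates 2 and 3 and deletion replicates 1 and 2. Neither numbering is stated to pair the samples. With 1 array left out at a time the values ran from -0.21 to 0.13 for Hdc, -0.66 to 0.56 for Ms4a2, -0.21 to 0.77 for Alox5, -1.51 to -0.28 for Cpa3, -1.32 to -0.31 for Rgs13 and -2.29 to -1.77 for Tph1. The cause of these changes was not tested beyond the array, block or weight that made them. The number of members with a range of 1 or more within a group was 4 to 5. With values over 5 on 3 arrays Gzmb was not in the fit, and with means above the median Hdc, Gzmb and Mitf were not. The arrays have no measure of signal over background here. Differences of dim genes such as Gzmb may be understated or may come from background, which was not tested.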

Other observations

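Among the 18 genes that were lower on control replicate 2 than on both other control arrays by 1 or more, Csf2rb encodes the shared beta chain of cytokine receptors that support mast cell growth. It read 7.63, 5.99 and 7.27 on control and 6.28, 7.46, 6.07 and 6.79 on deletion arrays, with deletion replicate 2 high as for Cpa3. The carbonic anhydrase gene Car13 read 9.48, 7.57 and 10.49 on control and 9.48 to 10.65 on deletion arrays. The angiotensin receptor gene Agtr1a read 9.46, 6.89 and 8.27 on control and 8.01 to 8.87 on deletion arrays. These genes were chosen after their values were seen. By the same margin, 30 genes were higher on control replicate 2 than on both other control arrays.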
